A study of Mus musculus with 12 samples.

Results

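Interferon-stimulated genes are switched on when interferons bind their receptors, and 9 of them (Irf7, Isg15, Usp18, Ifit1, Ifit2, Ifit3, Rsad2, Oasl1 and Irgm1) were followed here through the livers of mice on 4 diets. The genes were chosen by name, and the values of the transcripts that match each gene in the reference annotation were added within each liver. Rows of the deposited liver table that bear a gene's name but match another gene were left out. The 9 genes were 9 of 22947 genes in the table and 9 of the 12001 whose mean over the livers reached 0.5 FPKM and that were tested. FPKM counts sequenced fragments per length of the transcript, scaled to the mapped fragments of the library.

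All mice were male C57BL/6J, housed singly, on their diet for 16 weeks and 21 weeks old at sampling. The ND group ate a normal diet and the HFD group a high-fat diet. The CLE group ate the high-fat diet with 1.5% by weight of an ethanol extract of Chrysanthemum morifolium leaves, and the LU group ate it with 0.003% by weight of luteolin, a flavone of those leaves. Each group gave 3 livers, each named below by its group and mouse number, and whole liver RNA was sequenced.

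Type I and type III interferons activate kinases at their receptors, and the signal reaches the interferon-stimulated response element in the promoters of the target genes. Interferon gamma, the type II interferon, acts mainly through another element, the gamma-activated site. In the liver, hepatocytes, Kupffer cells and endothelial cells all carry interferon receptors, and many of the genes are also transcribed at a low level without infection.

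The promoters are shown first, searched for the response element and the gamma-activated site named above. In the RefSeq promoter table (GRCm38.p6, 250 bases before and 50 after each start), 8 of the 9 genes had an entry, all but Usp18. The core of the response element, searched on both strands as GAAA, any 2 bases and GAAA again, was found in 5 of these 8 genes and in 3.99% of the 27025 genes of the table. The 5 stretches of 90 bases that hold it are printed 5′ to 3′ along each gene, with the matches in capitals (a match on the other strand reads TTTC, 2 bases, TTTC, and matches that share bases run together).
Isg15 (chr4:156200841-156200930, minus strand): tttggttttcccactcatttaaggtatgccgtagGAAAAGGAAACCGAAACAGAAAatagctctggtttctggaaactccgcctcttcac
Ifit1 (chr19:34640754-34640843, plus strand): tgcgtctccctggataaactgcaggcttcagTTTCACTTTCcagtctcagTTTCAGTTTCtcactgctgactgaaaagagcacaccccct
Ifit3 (chr19:34583350-34583439, plus strand): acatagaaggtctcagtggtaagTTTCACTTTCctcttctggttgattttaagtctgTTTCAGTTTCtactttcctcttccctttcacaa
Rsad2 (chr12:26456523-26456612, minus strand): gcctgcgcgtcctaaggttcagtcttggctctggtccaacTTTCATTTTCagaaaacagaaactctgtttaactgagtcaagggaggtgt
Irgm1 (chr11:48871421-48871510, minus strand): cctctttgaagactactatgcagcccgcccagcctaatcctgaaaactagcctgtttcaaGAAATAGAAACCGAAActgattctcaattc
Isg15 held 3 overlapping matches, Ifit1, Ifit3 and Irgm1 held 2 each and Rsad2 held 1. In Irgm1 the nearest match ended 14 bases before the start, and in Ifit3 the farthest began 156 bases before it. No match lay in the windows of Irf7, Ifit2 and Oasl1. The gamma-activated site, searched as TTC, any 3 bases and GAA, was found in Ifit2 alone of the 8 and in 9.55% of all genes of the table. A match is a run of letters and not a measured binding site.

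The liver label held: the summed level of 5 hepatocyte markers lay between 17246 and 25629 FPKM in all 12 libraries. Read counts are not in the table, so depth is unknown and no counting interval is given. Albumin was listed at 0 in 11 of the 12 libraries, so a listed 0 can be a failed estimate. The libraries also differed in base composition. Over 11931 genes, how far a gene stood from its 12-liver mean ran against its GC content in the 6 ND and HFD libraries (Spearman's rho -0.37 to -0.14) and with it in the 6 CLE and LU libraries (0.16 to 0.47). That difference cannot be told apart from the treatments, and corrected values are given beside the results where the correction ends or brings a call. With FPKM as deposited the median of all tested genes was 0.11 higher in HFD, 0.16 higher in CLE and 0.12 higher in LU than in ND on the log2(FPKM + 1) scale, and a median-of-ratios scaling took these shifts to -0.01, 0.02 and 0.02. In that scaling the split of passing genes between HFD and ND moved from 1168 higher and 243 lower to 607 higher and 497 lower, that between CLE and ND from 2474 and 734 to 1228 and 1679, and that between LU and ND from 1300 and 442 to 731 and 1071. Between CLE and HFD the split was 303 higher and 379 lower, and 112 and 243 after the GC correction.

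Over the 12 livers, Irgm1 had the highest level, 53.9 ± 11.4 FPKM (SD, n = 12). Irf7 followed at 22.2 ± 3.13, Isg15 at 17.3 ± 3.50, Usp18 at 14.9 ± 3.95 and Ifit3 at 12.99 ± 2.56. Ifit1 stood at 7.61 ± 2.76, Rsad2 at 6.57 ± 2.84, Oasl1 at 5.55 ± 1.28 and Ifit2 at 2.75 ± 0.755. FPKM is a level per length, so these may be ranked against each other. The lowest Irgm1 value, 31.4, lay above the highest Irf7 value, 30.8, while the ranges of all other neighbours in this order overlapped. The order is of means over groups that differ: in ND every Usp18 value lay above every Isg15 value, and in CLE the mean of Ifit3 (11.3) stood above that of Usp18 (10.8).

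**Figure D1:**
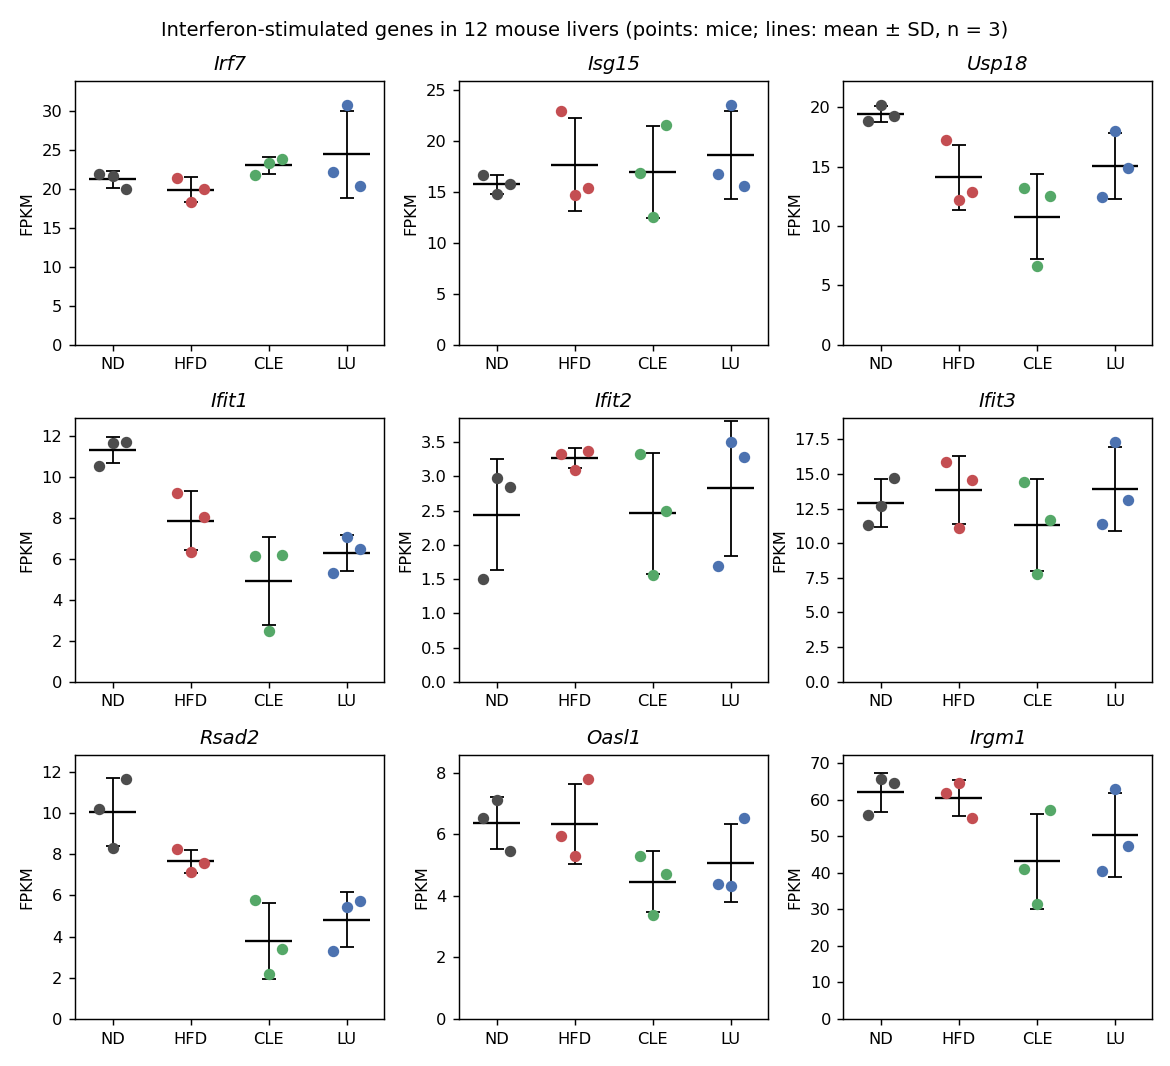
FPKM (vertical axis, from 0) of each of the 9 genes by diet group (horizontal axis), with a point for each mouse and lines for the mean ± SD (n = 3). Ifit1, Rsad2 and Usp18 are highest in all 3 ND livers, and the CLE and LU livers lie below them without overlap.

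In whole liver fewer cells of a type and less RNA per cell cannot be told apart, so what follows is a level per liver RNA. Against ND livers, CLE livers held less of 3 of the 9 transcripts: Rsad2, Ifit1 and Usp18. LU livers held less of Rsad2 and Ifit1. By limma's moderated test with Benjamini-Hochberg adjustment over 12001 genes, 26.7% of all tested genes passed between CLE and ND, 6.12% as lower and 20.6% as higher, and 42.6% had an unadjusted p under 0.05, as 5 of the 9 did. Between LU and ND 14.5% passed, 3.68% as lower and 10.8% as higher, and 34.3% had an unadjusted p under 0.05, as 2 of the 9 did. None of the 9 passed as higher in either. The median log2 difference of the 9 was -0.44 for CLE and -0.29 for LU (0.01 for LU with the most abundant transcript of each gene alone), beside the medians of all genes given above. The high-fat diet alone passed for 0 of the 9, where 11.8% of all genes passed (9.73% as higher and 2.02% as lower), and 0 of the 9 had an unadjusted p under 0.05, as 26.9% of all genes did. The groups did not overlap in the lower direction for Ifit1, Rsad2 and Usp18 between HFD and ND (7.46% of all genes) and between LU and ND (11.7%), and for these and Oasl1 between CLE and ND (10.3%). In the higher direction only Ifit2 did so, between HFD and ND (28.6%), and no member between CLE and ND (31.9%) or LU and ND (29.4%).

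Rsad2 encodes viperin, an enzyme that turns cytidine triphosphate into a chain-terminating analogue that stops viral polymerases. Its level was 10.2, 8.31 and 11.6 FPKM in ND mice 2, 3 and 4, and 8.26, 7.12 and 7.57 in HFD mice 12, 15 and 18. It was 5.77, 2.16 and 3.41 FPKM in CLE mice 2, 4 and 11, and 3.30, 5.42 and 5.74 in LU mice 2, 3 and 8, the order of mice kept for the genes that follow. Every CLE and every LU liver lay below every HFD and every ND liver, and the CLE and LU ranges overlapped. Between CLE and ND, Rsad2 fell by 1.27 on the log2 scale (SE 0.243, adjusted p = 0.0052 by limma), and the mean FPKM in CLE was 0.376 times that in ND. Between LU and ND it fell by 0.94 (adjusted p = 0.026), a call lost without ND mouse 2 or 4 or LU mouse 2 (adjusted p = 0.068, 0.091 and 0.083). Between CLE and HFD it fell by 0.92 (95% interval -1.45 to -0.40, adjusted p = 0.047 by limma). That call was lost after the correction for GC content (-0.79, adjusted p = 0.066) and without CLE mouse 4 (-0.66, adjusted p = 0.18), HFD mice 12, 15 or 18 or CLE mouse 11. Between LU and HFD the difference was -0.60 (adjusted p = 0.20).

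Cmpk2, a mitochondrial nucleotide kinase gene that begins 12.8 kb from Rsad2 on chromosome 12 and is read in the other direction, had the same order of group levels. It was 5.88 to 6.56 FPKM in ND, 4.81 to 5.40 in HFD, 2.04 to 4.30 in CLE and 2.996 to 4.63 in LU. It fell by 0.81 in CLE against ND (adjusted p = 0.0098 by limma), a call kept in all 17 alternatives that gave a value, and the difference between CLE and HFD was -0.56 (adjusted p = 0.073).

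Ifit1, Ifit2 and Ifit3 encode tetratricopeptide proteins that bind foreign RNA or assemble with each other on it. They lie together on chromosome 19 within 99.3 kb. Ifit1 was 10.6, 11.7 and 11.7 FPKM in ND, 9.23, 6.36 and 8.05 in HFD, 6.14, 2.46 and 6.22 in CLE, and 5.33, 7.06 and 6.49 in LU. All 9 livers of the mice on a high-fat diet lay below all 3 ND livers. Ifit1 fell by 1.13 between CLE and ND (SE 0.237, adjusted p = 0.0077 by limma) and by 0.76 between LU and ND (adjusted p = 0.049). The LU call was lost after the GC correction (adjusted p = 0.051) and without any 1 of the 6 mice. The differences between HFD and ND (-0.48, adjusted p = 0.21) and between CLE and HFD (-0.64, adjusted p = 0.10) did not pass, though the latter did without CLE mouse 2 (adjusted p = 0.043).

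Ifit2 and Ifit3 passed in no comparison. Ifit2 was 1.50, 2.98 and 2.84 FPKM in ND, 3.33, 3.10 and 3.38 in HFD, 3.33, 1.56 and 2.501 in CLE, and 1.69, 3.50 and 3.29 in LU. The HFD livers lay above the ND livers without overlap, as did 28.6% of all tested genes, with a difference of 0.34 (adjusted p = 0.39 by limma). Of its mean of 2.75 FPKM, 2.31 came from a transcript that Cufflinks assembled with a junction the reference lacks. Ifit3 was 11.3, 12.7 and 14.7 FPKM in ND, 15.9, 11.1 and 14.5 in HFD, 14.4, 7.79 and 11.7 in CLE, and 11.4, 17.3 and 13.1 in LU, and all 4 groups overlapped. The level of Ifit3 is uncertain: 51.2% of the 50-base windows of its known transcript also occur in its neighbour Ifit3b. In other genes occurred 7.13% of the windows of Ifit1 and 0% of those of Ifit2, Rsad2, Usp18, Oasl1 and Irf7. For Ifit2 the windows were those of a known transcript at 0.379 FPKM, and the assembled transcript was not checked.

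Isg15 is a small ubiquitin-like protein that is joined to other proteins in the interferon response. Usp18 is the protease that removes it and also restrains the interferon receptor. Usp18 was 18.8, 20.2 and 19.3 FPKM in ND, 17.3, 12.2 and 12.9 in HFD, 13.2, 6.64 and 12.5 in CLE, and 12.4, 17.98 and 14.9 in LU. Every liver of the other groups lay below every ND liver. Usp18 fell by 0.85 between CLE and ND (SE 0.215, adjusted p = 0.016 by limma), while the differences between HFD and ND (-0.45, adjusted p = 0.20) and LU and ND (-0.36, adjusted p = 0.25) did not pass. Isg15 was 16.7, 14.8 and 15.7 FPKM in ND, 23.0, 14.7 and 15.4 in HFD, 16.9, 12.5 and 21.6 in CLE, and 16.7, 23.5 and 15.6 in LU. Its groups overlapped in all 6 comparisons, and its differences ran from -0.14 between CLE and LU to 0.21 between LU and ND.

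Irf7 is the transcription factor that amplifies interferon production, and Oasl1 is known for holding back translation of its messenger RNA. Irf7 was 22.005, 21.7 and 20.0 FPKM in ND, 21.5, 18.3 and 20.0 in HFD, 21.9, 23.4 and 23.9 in CLE, and 22.2, 30.8 and 20.4 in LU. CLE livers lay just above HFD livers, by 0.20 (95% interval -0.09 to 0.50, adjusted p = 0.34 by limma) and by 0.02 after the GC correction, where 16.3% of all tested genes were higher without overlap. The value of LU mouse 3 stood above the other 11. Oasl1 was 6.52, 7.10 and 5.46 FPKM in ND, 5.94, 5.29 and 7.78 in HFD, 5.30, 3.36 and 4.69 in CLE, and 4.37, 4.31 and 6.52 in LU. CLE livers lay below ND livers without overlap, as did 10.3% of all tested genes. The difference of -0.44 did not pass (adjusted p = 0.085 by limma), but with the GC correction it was -0.76 (adjusted p = 0.019), and it passed with 2 other scalings.

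Irgm1 is a GTPase that interferon gamma induces, and Irgm2 and Igtp are related GTPases of the same family. The deposited table holds more than Irgm1 under that name: of its 13 rows, 5 match Irgm1, 3 match Irgm2 and 3 match Igtp, both of them elsewhere on chromosome 11, and 2 lie on the opposite strand. The sum over all 13 rows averaged 109.9 FPKM, the 5 Irgm1 rows 53.9, and only these 5 are used for Irgm1. Likewise 2 of the 10 rows named Ifit1 match Ifit1, and the other 8 added little to its mean (7.89 against 7.61 FPKM).

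Irgm1 itself was 55.8, 65.5 and 64.6 FPKM in ND, 61.7, 64.4 and 54.98 in HFD, 41.0, 31.4 and 57.0 in CLE, and 40.5, 62.9 and 47.3 in LU. CLE mouse 11 and LU mouse 3 lay inside the ND and HFD ranges. The difference was -0.55 between CLE and ND (adjusted p = 0.054 by limma) and -0.51 between CLE and HFD (adjusted p = 0.11), and with median-of-ratios scaling the first passed (-0.72, adjusted p = 0.022). Without CLE mouse 11 both passed (adjusted p = 0.017 and 0.0499). By the deposited name the same 2 differences were -0.60 (adjusted p = 0.081) and -0.50 (adjusted p = 0.18). Irgm2 was 25.5, 35.6 and 32.2 FPKM in ND and 17.6, 12.3 and 21.1 in CLE. It fell by 0.85 between them (adjusted p = 0.028 by limma), while Igtp differed by -0.53 (adjusted p = 0.26).

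**Figure D2:**
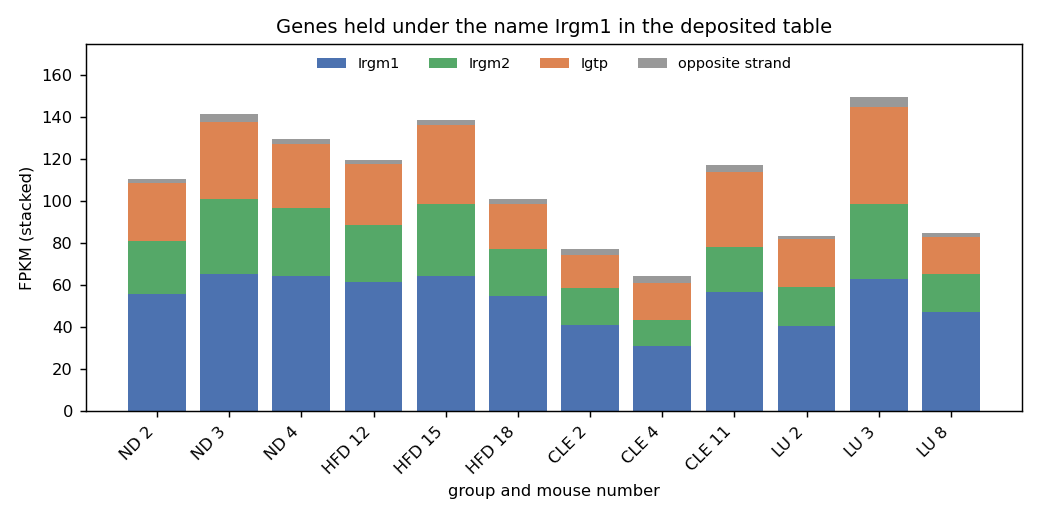
FPKM (vertical axis, stacked from 0) of the genes that share the name Irgm1 in the deposited table, in each mouse (horizontal axis, group and mouse number). The stacks run from 64.3 in CLE 4 to 149.7 in LU 3, and Irgm2 and Igtp make up much of each.

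Luteolin and the extract were not given at a matched dose, so their values stand side by side. Between CLE and LU livers 0 of the 9 genes passed by limma, where 0.00833% of all tested genes did (1 gene, higher, and 0.00% lower), and in none were the groups apart (4.65% of all genes higher and 2.42% lower). All 9 differences were negative, with a median of -0.23. Without CLE mouse 4, 6 were negative and 3 positive and the median was -0.03, and without LU mouse 3, 7 were negative and 2 positive with a median of -0.14. With all mice the 95% intervals of the 9 ran from -0.95 at the lowest bound to 0.37 at the highest. Usp18 alone had an unadjusted p under 0.05, as 4.27% of all genes did (-0.49, limma adjusted p = 0.98). Between LU and HFD 0 of the 9 passed, where 1.00% of all genes did (0.283% as higher and 0.717% as lower), and 1 of the 9, Rsad2, had an unadjusted p under 0.05, as 20.4% of all genes did. Rsad2 was also the one member whose groups were apart, in the lower direction (16.8% of all genes, and 13.3% in the higher). Between CLE and HFD 1 of the 9 passed, Rsad2, where 5.68% of all genes did (2.52% as higher and 3.16% as lower), and 4 of the 9 had an unadjusted p under 0.05 (29.4% of all genes). Ifit1 and Rsad2 were lower there without overlap (14.9% of all genes) and Irf7 higher (16.3%). The comparisons with HFD share the HFD livers, and those with ND share the ND livers. By the moderated F test among the 4 groups, Rsad2 (adjusted p = 0.013) and Ifit1 (adjusted p = 0.025) passed and Usp18 did not (adjusted p = 0.0555), where 23.6% of all genes passed.

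**Figure D3:**
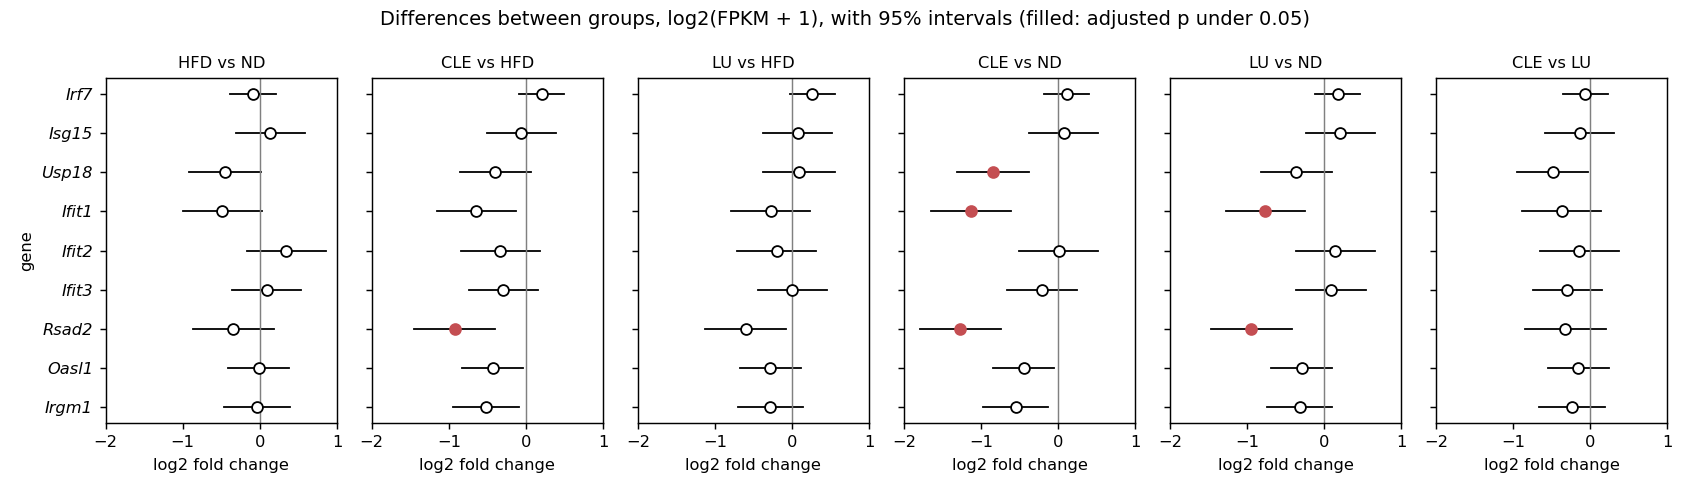
Differences on the log2(FPKM + 1) scale (horizontal axis) of the 9 genes (vertical axis) in the 6 comparisons, with 95% intervals and filled points for an adjusted p under 0.05. Filled points stand at Rsad2, Ifit1 and Usp18 for CLE vs ND, at Rsad2 and Ifit1 for LU vs ND and at Rsad2 for CLE vs HFD.

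The 9 genes also differed between the mice of a group. CLE mouse 4 had the lowest value of its group in 8 of the 9, against 37.2% of all tested genes, with Irf7 as the exception. HFD mouse 15 was the lowest of its group in 8 (30.2% of all genes), LU mouse 2 in 6 (46.7%) and LU mouse 3 the highest in 7 (34.8%). After the group means were taken out, 34 of the 36 pairs of genes were positively correlated over the 12 livers, with a median r of 0.62. The highest was 0.96 for Ifit1 with Usp18 and the lowest -0.29 for Irf7 with Oasl1. Pairs of other genes were not correlated in this way, so the count cannot be set against that of any other genes. The 2 values of a pair come from the same library and share its composition, and CLE mouse 4 also had the strongest relation to GC content (0.47) and the most FPKM on transcripts with no reference. Without it 31 of the 36 pairs were positively correlated, with a median r of 0.51. Without it Rsad2, Ifit1 and Usp18 still fell between CLE and ND, by 1.00, 0.78 and 0.56 (adjusted p = 0.017, 0.011 and 0.042 by limma), while the median of the 9 between CLE and HFD went from -0.40 to -0.13.

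**Figure D4:**
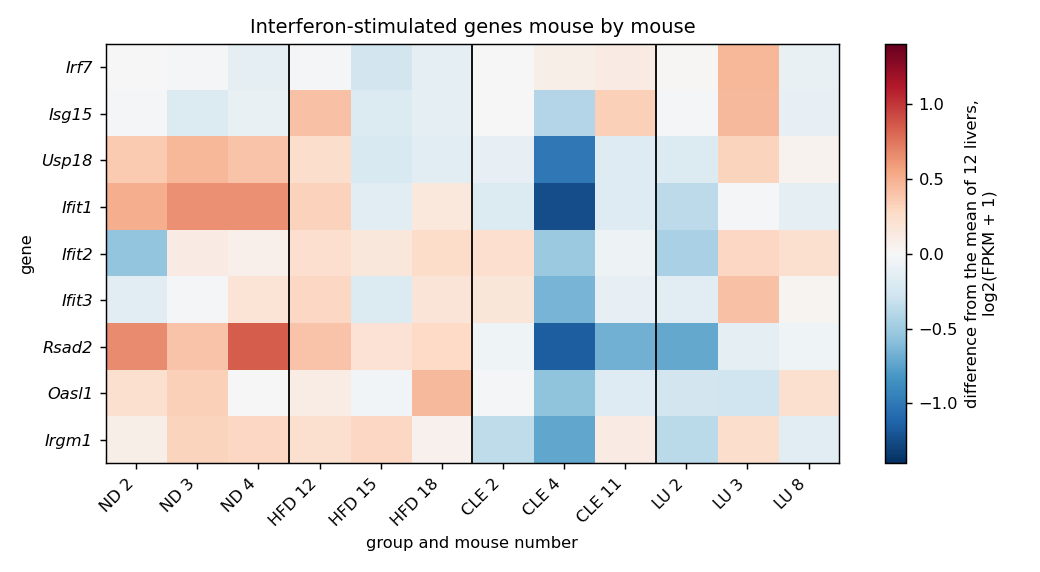
Difference of each gene (rows) from its mean over 12 livers on the log2(FPKM + 1) scale (colour, red higher and blue lower) in each mouse (columns, group and mouse number). The column of CLE 4 is blue for all genes but Irf7, and that of LU 3 is red for most.

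Outside the 9, 7 of the 8 genes whose levels over the 12 livers were most like the mean of the 9 (Pearson's r with the mean of their standardized values, given as a description) were Iigp1 (0.93), Rtp4 (0.91), Herc6 (0.89), Tmem230 (0.88), Ifit3b (0.87), Cdk7 (0.87) and Gfpt1 (0.86). Without CLE mouse 4 these r were 0.63 to 0.85. Iigp1, a GTPase of the Irgm1 family, was 137 to 177 FPKM in ND, 144 to 151 in HFD, 75.1 to 147 in CLE and 108 to 190 in LU. It passed in none of the 6 comparisons, the difference between CLE and HFD being -0.35 (adjusted p = 0.35 by limma).

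The interferons themselves were at or near 0. Of 21 interferon genes in the table, 17 were listed at 0 in all 12 livers, all the alpha interferons, Ifnab, Ifne, Ifnl2 and Ifnl3 among them. Ifnk had the highest level of the others, 0.068 to 0.32 FPKM over the 12 livers, and Ifng, the type II interferon, reached 0.25 FPKM. Ifnb1 was listed at 0.08 FPKM in LU mouse 2 and 0 elsewhere. Ifnz was listed at 0.063 and 0.069 FPKM in CLE mice 2 and 4 and 0 elsewhere. None of the 21 reached the filter. Both chains of the type I receptor were present, Ifnar1 at 10.3 to 15.5 and Ifnar2 at 51.7 to 65.3 FPKM over the 12 livers, and neither passed in a comparison.

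Of 13 tested genes of the receptors and the JAK-STAT pathway, 1 passed as higher between HFD and ND (9.73% of all genes). As higher, 1 also passed between CLE and ND (20.6%), 2 between LU and ND (10.8%) and 1 between LU and HFD (0.283%). None of the 13 passed as lower, where 2.02%, 6.12%, 3.68% and 0.717% of all genes did in these comparisons. With median-of-ratios scaling none passed as higher between HFD and ND or CLE and ND, and 1 and 2 passed as lower, and between LU and ND the split was 1 higher and 2 lower. Socs3, the inhibitor of cytokine receptor signalling, was 2.44 to 4.27 FPKM in ND, 2.70 to 4.02 in HFD, 4.55 to 9.66 in CLE and 7.21 to 12.8 in LU. It rose by 1.33 between LU and HFD (adjusted p = 0.032 by limma, a call kept in 1 of 6 fits without a mouse) and by 1.41 between LU and ND (adjusted p = 0.0061). Its rise in CLE against ND (0.82, adjusted p = 0.032) was lost with the GC correction (adjusted p = 0.18) and without ND mouse 2 or 4 or CLE mouse 4 (adjusted p = 0.10, 0.091 and 0.13). Il10rb, a receptor chain shared by interleukin 10 and the type III interferons, rose by 0.87 between HFD and ND and by 0.82 between LU and ND (adjusted p = 0.037 and 0.043), calls lost with each of the other scalings and the GC correction.

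Among 15 tested sensors and inducers of interferon, 3 passed as higher and 1 as lower in CLE against ND (20.6% and 6.12% of all genes). The same numbers passed in LU against ND (10.8% and 3.68% of all genes). The balance turned for CLE with median-of-ratios scaling (2 higher and 4 lower) and with the GC correction (1 and 3), and for LU both gave 1 and 1. Between HFD and ND 1 passed in each direction (9.73% of all genes as higher and 2.02% as lower). Ikbke, the kinase that phosphorylates Irf3 and Irf7, was 3.83 to 4.74 FPKM in ND, 8.05 to 11.4 in HFD, 10.2 to 14.99 in CLE and 9.42 to 15.7 in LU. All 9 livers on a high-fat diet lay above all ND livers. It rose by 1.03 in HFD, 1.32 in CLE and 1.39 in LU against ND (adjusted p = 0.0044, 0.0012 and 0.0013 by limma). Trim25, the ligase that helps activate the RNA sensor RIG-I, went the other way. Its level was 31.6 to 36.6 FPKM in ND and 21.8 to 28.9 in HFD. In CLE it was 16.4 to 20.6 and in LU 16.3 to 22.3. All 9 livers on a high-fat diet lay below all ND livers, but the difference between HFD and ND did not pass. Trim25 fell by 0.84 in CLE (adjusted p = 0.0031) and by 0.85 in LU (adjusted p = 0.0045) against ND. Dhx58, another RNA sensor, fell by 0.45 between HFD and ND (adjusted p = 0.039), a call lost when any 1 of the 6 mice was left out. Myd88 and Ticam1, the adaptors of Toll-like receptors, rose by 0.43 and 1.31 in CLE against ND (adjusted p = 0.023 for both) and by 0.47 and 1.23 in LU against ND (adjusted p = 0.024 and 0.043). The GC correction ended these calls (adjusted p = 0.20 and 0.085 for CLE, 0.090 and 0.11 for LU). Ticam1 was 0.192 FPKM in ND mouse 2, against 3.001 and 3.41 in the other ND mice, and without that mouse it differed by 0.71 in CLE and 0.63 in LU (adjusted p = 0.023 and 0.052). Without CLE mouse 4 the calls of Myd88 and Ticam1 between CLE and ND were also lost (adjusted p = 0.076 and 0.052).

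Of 50 other tested interferon-stimulated genes, 3 passed as higher between HFD and ND and none as lower (9.73% and 2.02% of all genes). Between CLE and ND 7 passed as higher and 5 as lower (20.6% and 6.12%). Between LU and ND 5 passed as higher and 1 as lower (10.8% and 3.68%). With median-of-ratios scaling and with the GC correction none passed between HFD and ND, and 4 passed as higher and 8 as lower between CLE and ND. Between LU and ND these gave 4 and 6, and 3 and 3. The median of the 50 was 0.18 between CLE and ND, near the 0.16 of all genes. Bst2, the tetherin that holds virus particles on the cell, was 121 to 126 FPKM in ND, 172 to 225 in HFD, 176 to 254 in CLE and 188 to 243 in LU. It rose by 0.69, 0.84 and 0.78 against ND (adjusted p = 0.013, 0.0043 and 0.0095 by limma), and the first call was lost after the GC correction (adjusted p = 0.0501) and after scaling by median of ratios (adjusted p = 0.067). Ifi27l2a was 8.64 to 11.6 FPKM in ND and 15.4 to 32.04 in the other 9 livers. It rose by 0.96 in HFD, 0.85 in CLE and 0.94 in LU against ND (adjusted p = 0.021, 0.023 and 0.024 by limma). The HFD call was lost with the other scalings and the GC correction, and the LU call with the latter (adjusted p = 0.066). The CLE call was lost with median-of-ratios scaling and with the GC correction (adjusted p = 0.057 and 0.089). Lgals3bp, a secreted galectin-binding protein, rose by 0.35 in HFD, 0.35 in CLE and 0.45 in LU against ND (adjusted p = 0.030, 0.020 and 0.012). The GC correction ended all of these calls (adjusted p = 0.165, 0.77 and 0.14). Oas2, an enzyme that makes the activator of RNase L, rose by 0.77 in CLE against ND (adjusted p = 0.014). That call was kept in 6 of 6 fits without a mouse and in 15 of 17 alternatives (adjusted p up to 0.99 by limma). Oas2 rose by 0.76 in LU against ND (adjusted p = 0.023), and by 0.50 without LU mouse 3 (adjusted p = 0.054). The LU call was kept in 10 of 17 alternatives (adjusted p up to 0.50 by limma). Sp110, a nuclear body protein, rose by 0.68 and Ogfr, the opioid growth factor receptor, fell by 0.63 in CLE against ND (adjusted p = 0.0069 and 0.0085). Sp110 also rose by 0.51 in LU against ND (adjusted p = 0.030), a call lost with the other scalings and the GC correction. Ogfr also fell by 0.54 between CLE and HFD (adjusted p = 0.042), a call kept in 1 of 6 fits without a mouse.

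Of 17 tested GTPases that interferon gamma induces, 2 passed as higher and 1 as lower between CLE and ND (20.6% and 6.12% of all genes). None passed in the other 5 comparisons. The median of the 17 was -0.26 between CLE and ND and -0.28 between CLE and HFD, and after the GC correction -0.27 and -0.17. Irgm2, given above, was the one that fell, a call lost without ND mouse 3 or 4 or CLE mouse 4 (adjusted p = 0.083, 0.081 and 0.11), and 9930111J21Rik2 and Gbp9 rose by 0.55 and 0.47 (adjusted p = 0.015 and 0.047 by limma), the Gbp9 call being lost when any 1 of the 6 mice was left out. Of 16 tested regulators, chemokines and antigen processing genes of the same response, 4 passed as higher between CLE and ND (20.6% of all genes). As higher, 3 passed between LU and ND (10.8%) and 1 between CLE and HFD (2.52%), and none passed as lower. With median-of-ratios scaling these counts were 2, 1 and 1, and with the GC correction 2, 0 and 0. Irf1, a transcription factor induced by interferon gamma, was 13.6 to 19.0 FPKM in ND, 17.5 to 23.6 in HFD, 27.6 to 32.05 in CLE and 22.7 to 27.95 in LU. It rose by 0.85 between CLE and ND (adjusted p = 0.0028) and by 0.53 between CLE and HFD (adjusted p = 0.047), and the second was lost with the GC correction (adjusted p = 0.077) and kept in 1 of 6 fits without a mouse. Cxcl11, a chemokine, rose by 0.61 between CLE and ND (adjusted p = 0.0058) from 1.16 to 1.62 FPKM up to 2.11 to 2.90. The HFD livers lay between, at 1.83 to 2.08 FPKM. Psme2 and Psme1, subunits of the proteasome activator, rose by 0.57 and 0.39 (adjusted p = 0.039 and 0.036), calls lost with the GC correction (adjusted p = 0.20 and 0.53). In LU against ND, Irf1, Psme2 and Psmb10, an immunoproteasome subunit, rose by 0.60, 0.71 and 0.74 (adjusted p = 0.019, 0.027 and 0.038), calls lost with the GC correction (adjusted p = 0.063, 0.084 and 0.16).

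**Figure D5:**
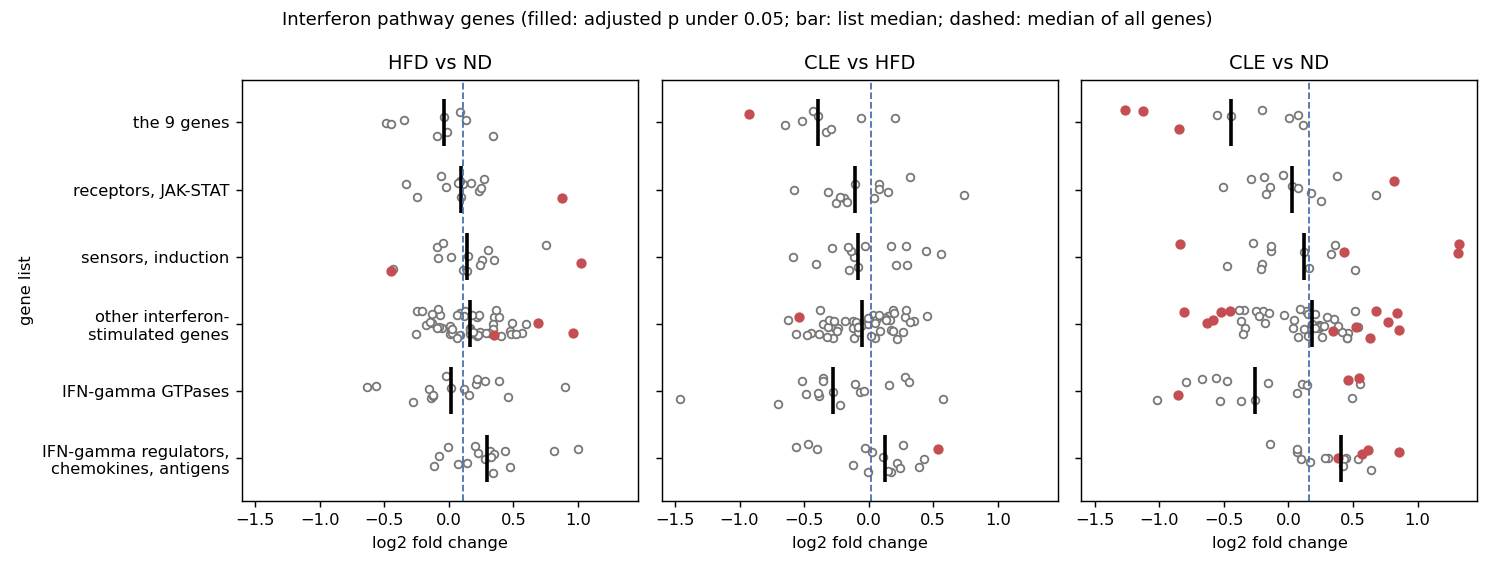
Log2 differences (horizontal axis) of the 9 genes and of 5 lists of interferon pathway genes (vertical axis, a point for each tested gene) in 3 comparisons, filled where the adjusted p was under 0.05, with a bar at each list's median and a dashed line at the median of all genes. For CLE vs ND the median of the 9 genes is at -0.44 and that of the 50 other interferon-stimulated genes at 0.18.

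The summed markers of some other cells differed between the groups, though not every marker in a sum followed it. The summed level of 6 Kupffer cell markers was 94.1 to 107 FPKM in ND, 137 to 205 in HFD, 137 to 171 in CLE and 104 to 177 in LU. All 6 were above 0.5 FPKM in every liver. Clec4f and Cd5l made up most of the sum. Timd4 was 2.91 to 3.25 FPKM in ND and 2.77 to 4.27 in CLE. Adgre1 was 3.84 to 4.56 FPKM in ND and 5.10 to 6.86 in HFD, but 2.14 and 2.99 in CLE mice 4 and 11. The sum of 3 sinusoidal endothelial markers was 49.3 to 59.4 FPKM in ND, 67.1 to 69.6 in HFD, 73.3 to 82.4 in CLE and 68.8 to 93.4 in LU. Lyve1, one of the 3, overlapped between ND (3.44 to 4.46 FPKM) and CLE (2.72 to 5.30). The endothelial, monocyte and plasmacytoid dendritic cell sums of the ND livers lay below those of every other liver. The 4 plasmacytoid dendritic cell markers summed to 122 to 126 FPKM in ND and 173 to 255 elsewhere, nearly all of it Bst2, while Siglech stayed at or under 0.77 FPKM in every liver. Markers of neutrophils summed to 2.13 to 3.62 FPKM in ND, 4.18 to 7.20 in HFD, 7.60 to 11.7 in CLE and 2.43 to 8.63 in LU, with Ly6g listed at 0 throughout. The monocyte sum was 1.11 to 1.76 FPKM in ND and 2.59 to 3.81 in HFD. In CLE it was 2.05 to 6.45 and in LU 2.29 to 6.53. For B cells the sum was 1.11 to 1.59 FPKM in ND and 0.787 to 1.33 in HFD. In CLE it was 1.60 to 2.92 and in LU 1.43 to 1.95. Adipocyte markers summed to 0.637 to 1.09 FPKM in LU and 0 to 0.172 elsewhere. Conventional dendritic cell markers summed to 2.56 to 2.88 FPKM in HFD and 2.70 to 5.45 elsewhere. T and NK cell markers summed to 1.84 to 2.59 FPKM in ND, 2.69 to 3.71 in CLE and 1.29 to 5.04 over the 12 livers. The part of these cells in the results was not tested.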

How the data were processed

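Liver RNA of 12 mice, 3 for each of 4 diets, was sequenced by the authors as paired reads of 100 bases. The submitters' processing notes name CASAVA 1.8.2, Bowtie2 2.2.3, TopHat2 2.0.12 and Cufflinks 2.2.1. The authors deposited FPKM values for 152210 transcripts, of which 73424 were assembled from the reads, over an assembly of 30 samples. The genome build is not given in the sources used here, but 87.6% of the known transcripts that GENCODE M21 (GRCm38) holds have its start and end.

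Transcripts were assigned to genes by their M21 reference transcript and summed, because the gene names of the table put several genes under Irgm1 and Ifit1. The sums used 142683 transcripts in 22947 genes, and transcripts with no reference, on the opposite strand or within introns were left out. FPKM are not counts, so no count test was run. Differences were tested with limma 3.58.1 (R 4.3.3) with a variance trend on log2(FPKM + 1), two-sided, with 1 fit over all 12 livers, leaving out genes below a mean of 0.5 FPKM, with Benjamini-Hochberg adjustment at 0.05. A pseudocount of 1 understates the change of low genes. The script was tested on simulated data.

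The 9 genes and the pathway and marker lists were chosen with earlier results of these data known. The text names all 9, up to 4 passing genes of each list and comparison with the smallest p, and the 8 genes most like the mean of the 9, of which 1 is not reported here. Igtp, Ifnar1, Ifnar2 and single markers are named beyond it, after their values were seen. Gbp6 and Irf8 were not analysed here. Alternatives were another pseudocount, other filters, median-of-ratios and quantile scaling, the 2 compared groups alone, no variance trend, other gene sums, each mouse left out and the mouse number as a block. The correction for GC content (loess, span 0.5), sums by the deposited names, and the correlations with each liver left out were chosen after seeing the data. The study's methods call the 3 livers of a group representative samples, without saying how they were picked, so p-values measure the spread between these livers.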

Additional observations from a re-analysis of the deposited data

How the results depend on the processing

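Between CLE and ND, Rsad2, Ifit1 and Usp18 passed in all 18 alternatives, with adjusted p up to 0.025, 0.030 and 0.046. The number of the 9 that passed there rose from 3 to 5 with median-of-ratios and with quantile scaling, when Oasl1 and Irgm1 joined, and was 3 to 4 without any 1 mouse. Between CLE and HFD the count went from 1 to 0 without a filter, with the 2 groups alone, with the most abundant transcript alone, with known transcripts alone and with the GC correction, and was 0 to 2 without any 1 mouse. Between LU and ND it went from 2 to 1 with a pseudocount of 0.1, the most abundant transcript alone, known transcripts alone, the GC correction and the replicate block, to 0 without a filter, and to 0 to 1 without any 1 mouse. Between HFD and ND it went from 0 to 1 (Ifit1) with the 2 groups alone. By the F test it went from 2 to 1 without a filter, with the most abundant transcript alone and with known transcripts alone, to 4 with the GC correction, and to 1 to 3 without any 1 mouse. The median difference of the 9 between LU and ND ran from -0.41 to 0.01 over the alternatives, the highest with the most abundant transcript alone. Of 924 alternative values of single genes, 26 lost and 9 gained a call, and none with a call changed sign. Without a call, 25 values in 12 comparisons changed sign other than by leaving out a mouse, 22 of them in comparisons with ND. The cause was not tested.

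The number of pathway genes that passed between HFD and ND was 6, against 3 without a filter and with the most abundant transcript alone, 12 with the 2 groups alone, 2 with known transcripts alone and 1 to 5 without any 1 mouse. Between CLE and HFD it was 2, against 0 without a filter, with the 2 groups alone and with the most abundant transcript alone, 1 without the variance trend and with the GC correction, 4 with known transcripts alone and 0 to 13 without any 1 mouse, the 13 coming without CLE mouse 2. Between LU and HFD it was 1, against 0 without a filter, with the most abundant transcript alone and with known transcripts alone, and 0 to 1 without any 1 mouse. Between CLE and ND it was 24, against 12 to 28 without any 1 mouse and 13 with the replicate block. Between LU and ND it was 15, against 7 without a filter and 5 to 13 without any 1 mouse. Over all genes, 1030 passed between CLE and HFD with quantile scaling, against 682.

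The mouse numbers of the labels are shared by some mice of ND, CLE and LU. The correlation of the deviations of same-numbered mice was -0.25 to 0.19. These few correlations, in groups of 3 mice, cannot show whether such mice share more than a number. With the number as a block, 3 of the 9 passed between CLE and ND and 1 between LU and ND, where Rsad2 was at adjusted p = 0.057. No paired analysis was possible for the other comparisons because HFD mice share no number and CLE and LU share 1. Depth is unknown, so the precision of the low values, such as those of Ifit2 and the interferons, could not be given.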
